A study of Mus musculus with 34 samples.

Results

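The 9 genes described here make, break down or bind retinoic acid, the active derivative of vitamin A. They were chosen by name from the 20145 genes named on the array, and every probe assigned to them by RefSeq accession was taken. That gave 11 of the 55681 probes that were not controls, with 1 probe for 7 genes and 2 each for Rara and Rarb. Signals came from 34 brain fractions of 3 male C57BL/6J mice aged 3 days, 1 array per fraction and no replicate arrays. One brain was cut into 15 coronal, the next into 8 horizontal and the third into 11 sagittal fractions. The labels name no treatment, and a fraction gathered the 5 µm sections of a 500 µm wide slab, except that sagittal 1 and sagittal 11 each pooled 2 cut fractions. The labels do not say from which end fractions were numbered, so ends are described by number and by the marker genes measured in them.

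Retinoic acid is made from retinaldehyde by the aldehyde dehydrogenases Aldh1a1, Aldh1a2 and Aldh1a3, and the Cyp26 hydroxylases Cyp26a1, Cyp26b1 and Cyp26c1 remove it. It acts by entering the nucleus and binding the receptors Rara, Rarb and Rarg, which sit on DNA as pairs with the retinoid X receptors Rxra, Rxrb and Rxrg. In the embryo, sources and sinks set up retinoic acid gradients along the hindbrain, and around birth the meninges and the striatum are known places of synthesis and response.

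Signals are given as log2 of the scanner's processed signal less the log2 75th percentile of that array, so 0 is the 75th percentile of its array and 1 unit is a doubling. Between 29598 and 37091 of the 59305 spots that were not controls stood well above background on each array, and none was saturated. Known regional genes followed the fraction numbers: the 3 measured hindbrain and spinal cord markers were summed highest in coronal 2, the 5 cerebral cortex markers in coronal 13, and the 4 olfactory bulb markers in coronal 15. In the sagittal series fractions whose numbers add up to 12 were taken as mirror images, with 6 as the middle. The labels do not name the midline, and not every marker list was symmetric. The hindbrain and spinal cord log2 sum was -3.60 in sagittal 3 and 3.09 in sagittal 9. The coronal series was divided into 5 blocks of 3 neighbouring fractions, and the test compared fractions within 1 animal, so its p-values measure the spread between neighbouring fractions and arrays, not between mice. In whole slabs, fewer cells of a type and less RNA per cell cannot be told apart.

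All but 2 of the 11 probes were well above background in all 34 fractions. The exceptions were Cyp26a1, above background in 2 fractions, and Cyp26c1, above background in 1. Spread over the fractions differed widely among the others. The SD over 34 fractions was 1.00 for Aldh1a3 and 0.96 for the main Rarb probe, more than in 94.9% and 94.0% of the 38002 probes tested, and 0.17 for the main Rara probe, more than in only 7.98% of them. Rara was thus measured at nearly the same level in every fraction, while Aldh1a3, Rarb, Aldh1a1, Cyp26b1 and Aldh1a2 each had fractions where they stood out. The SD does not separate position from spread at low signal. That of Cyp26a1, above background in 2 fractions, was 0.83, more than in 89.2% of the probes tested.

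**Figure D1:**
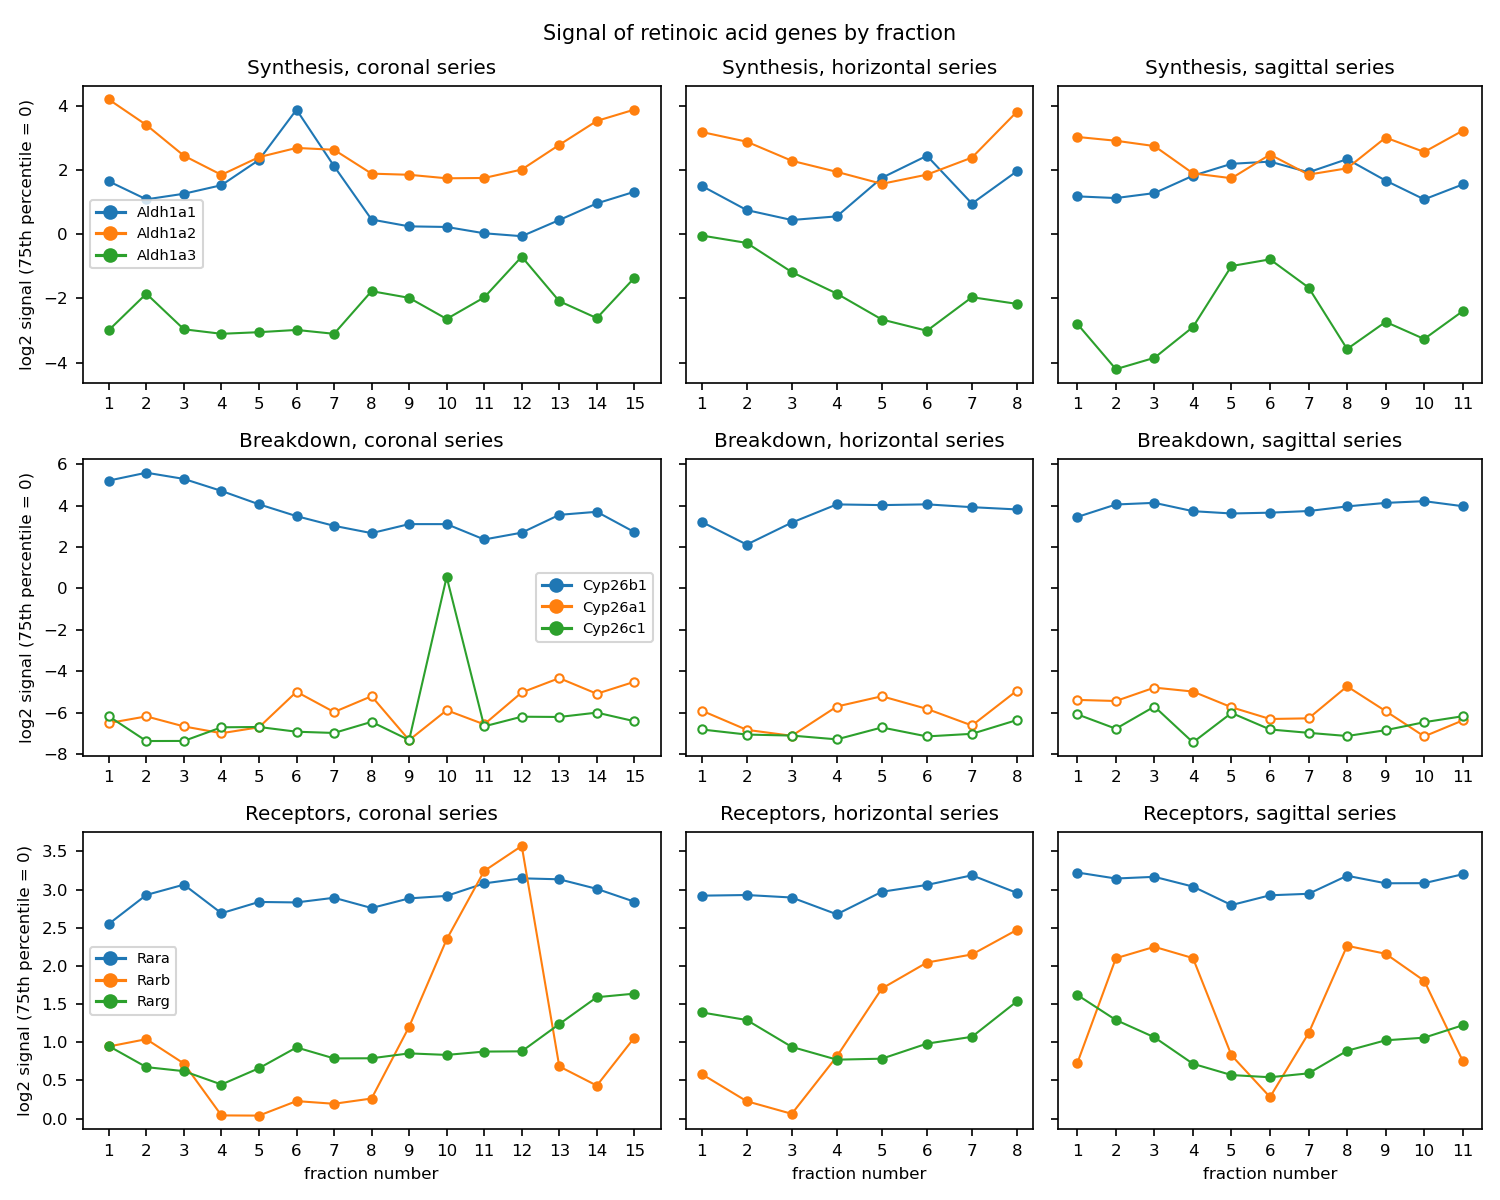
Log2 signal (75th percentile of each array = 0) of the 9 genes against fraction number, with synthesis enzymes in the top row, breakdown enzymes in the middle and receptors at the bottom, and the coronal, horizontal and sagittal series from left to right. Filled points were well above background and open points were not; heights of different genes rest on different probes and are not comparable. Aldh1a1 peaks at coronal 6, Aldh1a2 at both coronal ends, Cyp26b1 falls from coronal 2 to coronal 8, and Rarb peaks at coronal 10 to 12.

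Along the coronal series 5 of the 8 genes tested changed with position (limma moderated F across 5 blocks, Benjamini-Hochberg adjusted p under 0.05), against 48.5% of all probes tested. The share of members was thus close to that of all probes. The 5 were Cyp26b1, Rarb, Rarg, Aldh1a1 and Aldh1a2. In single blocks, set against the mean of the other 4, the members called in either direction were 2 of 8 for fractions 1-3 (background 24.8%), 2 of 8 for 4-6 (19.4%), 1 of 8 for 7-9 (8.68%), 3 of 8 for 10-12 (17.2%) and 3 of 8 for 13-15 (31.3%). Horizontal fractions 1-3 against 6-8 gave 3 of 8 members against 5.28% of all probes, and sagittal fractions 5-7 against 1, 2, 10 and 11 gave 2 of 8 against 9.62%.

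Among the synthesis enzymes, Aldh1a2 was highest at the end fractions of every series. Aldh1a2, the dehydrogenase known for the first retinoic acid of the embryo and later for that of the meninges, read 4.20, 3.40 and 2.45 in coronal 1, 2 and 3, and 2.78, 3.53 and 3.88 in coronal 13, 14 and 15. The 9 fractions between them lay from 1.74 in coronal 10 to 2.69 in coronal 6. Both end fractions of the series were therefore above everything in its interior.

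The block mean of Aldh1a2 was 3.40 ± 0.56 (SD, n = 3) in coronal 13-15 and 0.99 ± 0.34 (SE) above the mean of the other blocks (limma adjusted p = 0.029). In coronal 1-3 it was 3.35 ± 0.88 and 0.93 ± 0.34 (SE) above them (limma adjusted p = 0.0479). The second call was lost without any 1 of 11 of the 15 coronal fractions, with differences from 0.51 without coronal 1 to 0.95 without coronal 12. The call for 13-15 was lost without coronal 14 (0.93, adjusted p = 0.0949) or coronal 15 (0.75, adjusted p = 0.2), and both were lost with slide as a block (0.70, adjusted p = 0.496, and 1.27, adjusted p = 0.193). Among the arrays of 1 slide, coronal 13-15 stood 1.62 above coronal 9-11, with no overlap.

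The horizontal series showed the same shape from one end to the other. Aldh1a2 read 3.19 in horizontal 1, 1.57 in horizontal 5 and 3.82 in horizontal 8. Because both ends were high, horizontal 1-3 and 6-8 differed by only 0.10, with a 95% interval from -0.79 to 0.99. In the sagittal series the outer fractions 1, 2, 10 and 11 read 3.03, 2.91, 2.56 and 3.23, while 5, 6 and 7 read 1.74, 2.48 and 1.86. These groups did not overlap, yet the difference of -0.91 ± 0.41 (SE) did not pass the test (limma adjusted p = 0.162). Sagittal 3, 4, 8 and 9 read 2.75, 1.90, 2.05 and 3.01, so sagittal 9 was above sagittal 2 and 10.

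Markers of meninges moved with Aldh1a2. All 10 genes of the meningeal list (collagens, Dcn, Lum, Slc6a13, Slc13a4, Foxc1, Foxd1 and Slc22a6) were detected. On a log2 scale their summed signal ranged from 6.64 to 7.72 in coronal 1-3, from 5.85 to 5.95 in coronal 10-12 and from 6.68 to 8.04 in coronal 13-15. Pearson's r between Aldh1a2 and that sum was 0.95 over 15 coronal, 0.87 over 8 horizontal and 0.98 over 11 sagittal fractions. It is a description, since neighbouring fractions share tissue and each array's scaling enters both values. The part of meningeal tissue in the level of Aldh1a2 was not tested. The 3 named genes with the most similar pattern over 34 fractions were Kank2 (r = 0.95), Qprt (r = 0.95) and Timp1 (r = 0.94), an inhibitor of matrix metalloproteinases.

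Aldh1a1 had a single tall coronal peak. Aldh1a1, the dehydrogenase known from a subset of midbrain dopamine neurons, read 1.53, 2.32 and 3.88 in coronal 4, 5 and 6, then 2.12 in coronal 7 and 0.46 in coronal 8. The lowest values were 0.23, 0.03 and -0.06 in coronal 10, 11 and 12, and coronal 15 read 1.32. From coronal 12 to coronal 6 the range was 3.94 log2 units, or 15.4-fold.

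Coronal 4-6 was 1.76 ± 0.39 (SE) above the other blocks (limma adjusted p = 0.0028) and coronal 10-12 was -1.37 ± 0.39 (SE) relative to them (limma adjusted p = 0.0158). The first rests on coronal 6, without which it was 1.11 (adjusted p = 0.0602). The second was -1.36 (adjusted p = 0.0754) without coronal 11 and -1.31 (adjusted p = 0.0897) without coronal 12. With slide as a block they were 1.15 (adjusted p = 0.312) and -0.67 (adjusted p = 0.71). On the slide that held coronal 1 to 8, fractions 4-6 averaged 1.26 more than the other 5, with overlap.

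In the other series the peaks of Aldh1a1 were lower and no call was made. Horizontal 6 was highest at 2.44 and horizontal 3 lowest at 0.44, and 1-3 against 6-8 gave -0.89 with a 95% interval from -1.89 to 0.12. Sagittal 5, 6 and 7 read 2.19, 2.26 and 1.93 against 1.18, 1.13, 1.09 and 1.55 in 1, 2, 10 and 11. The groups did not overlap, and the difference of 0.89 had an interval from -0.05 to 1.83 (limma adjusted p = 0.229).

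Several genes of dopamine neurons peaked where Aldh1a1 did. The 3 genes most like Aldh1a1 over 34 fractions were Chrna6, a nicotinic receptor subunit (r = 0.80), Slc6a3, the dopamine transporter (r = 0.74), and Card10 (r = 0.74). All 5 genes of the dopamine neuron list were detected, 3 of them peaked in coronal 6 and 4 in horizontal 6, the peak fractions of Aldh1a1. The summed list ranged from 3.17 to 4.68 in coronal 4-6 and from 1.83 to 1.94 in coronal 10-12. It was also high in coronal 15, at 4.75, where Th, the first enzyme of dopamine synthesis, peaked and where the olfactory bulb markers were highest. There Aldh1a1 read 1.32. The r between Aldh1a1 and the summed list was 0.54 over the coronal, 0.79 over the horizontal and 0.90 over the sagittal fractions. Over all 34 fractions the dopamine neuron list had the highest r of all the marker lists (0.59), followed by the midbrain list (0.45). Within single series it had the highest r only over the horizontal fractions. Over the coronal fractions r was 0.60 with the midbrain list and 0.55 with the skeletal muscle list. The 4 muscle genes all peaked in coronal 6. Over the sagittal fractions r was 0.92 with the hypothalamus list. The part of any of these tissues in the level of Aldh1a1 was not tested. The close paralogue Aldh1a7 had its coronal maximum in the same fraction, -0.26 in coronal 6, with r = 0.80 to Aldh1a1 over the coronal but -0.59 over the sagittal fractions. Whether the probes share signal was not tested, as probe sequences were not used here.

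Aldh1a3 followed another axis. Aldh1a3, known from sensory epithelia and forebrain, fell from -0.04, -0.27 and -1.18 in horizontal 1, 2 and 3 to -3.01, -1.96 and -2.17 in horizontal 6, 7 and 8. All 3 lower-numbered fractions were above all 3 higher-numbered ones, by 1.88 ± 0.50 (SE), a 3.69-fold difference (limma adjusted p = 0.0287). In the sagittal series it read -0.99, -0.78 and -1.66 in the middle fractions 5, 6 and 7 and -2.80, -4.21, -3.27 and -2.40 in 1, 2, 10 and 11. The middle was 2.02 ± 0.47 (SE) higher, or 4.06-fold (limma adjusted p = 0.00778). Both sizes depended on how background was handled. With normexp background correction the horizontal difference was 1.38 and the sagittal one 1.18, both still called. Signals were low in the outer sagittal fractions, with a processed signal of 22.6 in sagittal 2.

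Both calls rest on few fractions. The horizontal call was lost without horizontal 1 (1.66, adjusted p = 0.114), 2 (1.77, adjusted p = 0.0975), 6 (1.57, adjusted p = 0.119), 7 (2.09, adjusted p = 0.052) or 8 (1.99, adjusted p = 0.0626). The sagittal call was lost without sagittal 6 (1.84, adjusted p = 0.0534). With slide as a block the differences were 1.96 (adjusted p = 0.0343) and 3.06 (adjusted p = 0.0273). The sagittal value sets the 3 middle fractions against 1 outer fraction, sagittal 2, since no other outer array shared their slide, so it has no replicate in that arm. On the slide that held most horizontal fractions, 1 and 2 stood 2.23 above 6-8. Mirror fractions of Aldh1a3 differed by up to 1.12, with a within-pair SD of 0.57 against a median of 0.16 over all probes tested, so its sides matched loosely. Along the coronal series coronal 12 was highest at -0.70 and the others lay between -3.10 and -1.36 (limma F adjusted p = 0.198). The most similar named genes were Pdcd2 (r = 0.65), Fabp12 (r = 0.64) and Pde6g (r = 0.64), a subunit of the rod photoreceptor phosphodiesterase. Of the 2 retina markers Crx was above background in 3 fractions and Rcvrn in 4, and their summed signal had its horizontal maximum in horizontal 2. Its coronal maximum was in coronal 8 and not in coronal 12. The r of that sum with Aldh1a3 was 0.56 over the coronal, 0.64 over the horizontal and 0.19 over the sagittal fractions. Most values in the sum were not above background. These markers do not identify a tissue here, and the part of any such tissue in the level of Aldh1a3 was not tested.

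Of the breakdown enzymes only Cyp26b1 was measured throughout. Cyp26b1, the Cyp26 enzyme known in the hindbrain and in forebrain neurons, read 5.21, 5.59 and 5.29 in coronal 1, 2 and 3 and then fell with each fraction to 2.67 in coronal 8. From coronal 9 to coronal 15 it stayed between 2.36 and 3.70. Coronal 1-3 averaged 5.36 ± 0.20 (SD, n = 3), and no later fraction reached 5.

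The block 1-3 was 2.10 ± 0.23 (SE) above the other blocks, a 4.28-fold difference (limma adjusted p = 3.83e-07). It was called under every alternative setting and every removal of 1 fraction, from 1.98 to 2.27, with 2.27 for slide as a block (adjusted p = 0.000549). Coronal 7-9 was lower by -0.94 ± 0.23 (SE, limma adjusted p = 0.0126) and coronal 10-12 by -1.21 ± 0.23 (SE, limma adjusted p = 0.00092). The call for 7-9 was lost without coronal 8 (-0.81, adjusted p = 0.128), and that for 10-12 with slide as a block (-1.48, adjusted p = 0.164).

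In the horizontal series Cyp26b1 read 3.21, 2.11 and 3.18 in fractions 1, 2 and 3 and 4.06, 3.92 and 3.81 in 6, 7 and 8. The groups did not overlap, and 1-3 was lower by -1.10 ± 0.29 (SE, limma adjusted p = 0.0263). Horizontal 2 carried much of it: without it the difference was -0.74 (adjusted p = 0.17), and the call was lost as well without 6 (-1.03, adjusted p = 0.0815), 7 (-1.10, adjusted p = 0.0789) or 8 (-1.16, adjusted p = 0.0594). With slide as a block it was -1.20 (adjusted p = 0.0403). The sagittal series was nearly level, from 3.45 to 4.21, and the middle differed from the outer fractions by -0.25, with an interval from -0.81 to 0.30.

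The hindbrain list moved with Cyp26b1 along the coronal axis and not along the sagittal one. The 3 measured genes Hoxa5, Hoxb5 and Hoxb6 were all detected, and their summed log2 signal was 4.46 to 5.89 in coronal 1-3 against -3.49 to -1.51 in coronal 7-9. The r with Cyp26b1 was 0.88 over 15 coronal, 0.73 over 8 horizontal and -0.19 over 11 sagittal fractions. Cerebellar markers (4 of 5 detected in at least 2 fractions) were also highest in coronal 1, with r = 0.87 over the coronal fractions. The list of astrocytes and radial glia (4 of 4 detected) was highest in coronal 2 as well, at 6.34 to 6.79 in coronal 1-3 against 5.29 to 5.51 in coronal 7-9, and its r with Cyp26b1 was 0.84 over the coronal, 0.88 over the horizontal and -0.11 over the sagittal fractions. These lists cannot be told apart by position in the coronal series, and their part in the level of Cyp26b1 was not tested. The genes most like Cyp26b1 were Man1c1, a mannosidase of the Golgi (r = 0.90), Itpr2, a calcium release channel (r = 0.86), and Zfp536 (r = 0.86).

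Cyp26a1 and Cyp26c1, neighbours on chromosome 19, gave almost no signal. The Cyp26a1 probe was above background only in sagittal 4 (-4.99) and its mirror fraction sagittal 8 (-4.74), at processed signals of 17.6 and 17.5. In no coronal fraction was it above background, so the fitted difference of coronal 13-15 (1.53, limma adjusted p = 0.0115), the third call in that block, compares values that are only bounds, and no fold is given. The Cyp26c1 probe lay between -7.44 and -5.71 in 33 fractions and was not above background in any of them. In coronal 10 its signal was 597, or 0.55 after scaling, from 1 spot that carried neither an outlier nor a saturation flag. Its neighbours coronal 9 and coronal 11 read -7.33 and -6.67. Detected in 1 fraction, the probe did not pass the filter and was not tested.

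Among the receptors, Rarb had the sharpest pattern. Rarb, the receptor that is itself a classic target of retinoic acid, rose from 1.20 in coronal 9 to 2.35, 3.24 and 3.57 in coronal 10, 11 and 12 and was back at 0.68 in coronal 13. Its 3 lowest coronal values were 0.04, 0.04 and 0.19 in coronal 4, 5 and 7. Coronal 10-12 was 2.48 ± 0.27 (SE) above the other blocks, or 5.59-fold (limma adjusted p = 3.5e-06), and these 3 fractions held 58.8% of the series' summed signal.

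Coronal 4-6 was lower by -1.21 ± 0.27 (SE, limma adjusted p = 0.00322). Neither call was lost on removal of any 1 fraction, with ranges of 2.23 to 2.84 and -1.29 to -1.12. With slide as a block both were, at 1.61 (adjusted p = 0.0572) and -0.58 (adjusted p = 0.327). All arrays of coronal 1-8 shared a slide and all of 9-15 but coronal 12 another, so slide and position largely coincided. Why the differences became smaller in that fit was not tested. On the second of these slides coronal 10 and 11 stood 1.95 above 9 and 13-15, with no overlap. On the first, coronal 4-6 differed from the other 5 fractions by -0.53, with overlap.

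Along the horizontal series Rarb climbed from 0.58, 0.23 and 0.06 in 1, 2 and 3 to 2.04, 2.15 and 2.47 in 6, 7 and 8. The lower-numbered fractions differed by -1.93 ± 0.34 (SE), a 3.81-fold difference (limma adjusted p = 0.00163). In the sagittal series it had a peak on each side: 2.10, 2.25 and 2.10 in fractions 2, 3 and 4, and 2.26, 2.16 and 1.81 in 8, 9 and 10. Between them the middle fraction 6 read 0.28, and the outermost fractions 1 and 11 read 0.73 and 0.76. The within-pair SD of mirror fractions was 0.14 for the main probe, against a median of 0.16 over all probes tested. As the outer group mixed high fractions 2 and 10 with low fractions 1 and 11, middle against outer gave -0.60, with an interval from -1.26 to 0.05.

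The second Rarb probe showed a similar pattern, with a looser match of mirror fractions (within-pair SD 0.27, differences up to 0.60). Its r with the first was 0.98 over 34 fractions, it too was highest in coronal 10-12 (-0.51, 0.34 and 0.33), and it was called along the coronal (limma F adjusted p = 1.1e-05) and the horizontal series (-1.80 ± 0.36, SE, limma adjusted p = 0.00434).

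Striatal markers were highest in the coronal block where Rarb was highest. All 5 genes of the list (Drd1, Drd2, Adora2a, Rgs9 and Ppp1r1b) were detected, and their summed log2 signal was 5.08 to 5.85 in coronal 10-12 against 2.52 to 2.61 in coronal 4-6. The r between Rarb and that sum was 0.85 over the coronal, 0.97 over the horizontal and 0.81 over the sagittal fractions. The sum was also high in coronal 13 (4.76) and sagittal 1 (4.36), where Rarb read only 0.68 and 0.73. Over the horizontal fractions r was also 0.96 with the olfactory bulb list and 0.895 with the dopamine neuron list. The part of any of these tissues in the level of Rarb was not tested. The gene most like Rarb among all named probes was Rxrg, a partner receptor with which it binds DNA (r = 0.94 over 34 fractions). The r was 0.95 within each of the coronal, horizontal and sagittal series. Acrbp (r = 0.92) and Wbp2nl (r = 0.87) followed, the latter above background in 9 fractions only.

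**Figure D2:**
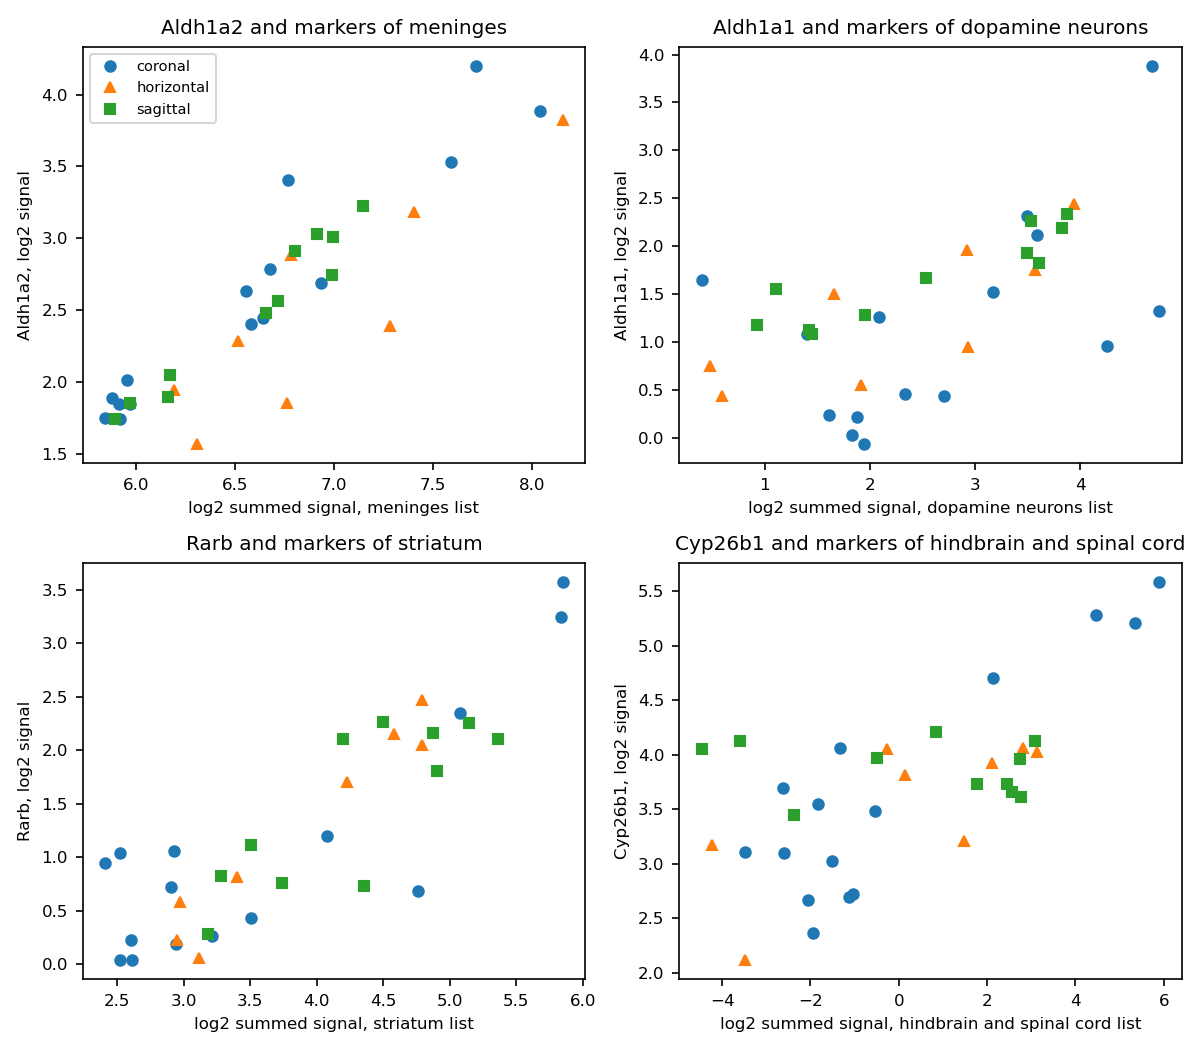
Log2 signal of a member against the log2 summed signal of a marker list in the same fraction, 34 points per panel, with circles for coronal, triangles for horizontal and squares for sagittal fractions. Aldh1a2 rises with the meningeal list and Rarb with the striatal list in all 3 series, Aldh1a1 departs from the dopamine neuron list in coronal 14 and 15 (lower right), and Cyp26b1 follows the hindbrain list in the coronal series but not in the sagittal one.

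Promoter windows bear on Rarb and Cyp26a1. A receptor pair binds direct repeats of a short core, and both strands of the window from 250 bases before to 50 after each RefSeq start (GRCm38.p6) were searched for such repeats. The cores were AGGTCA and its variant AGTTCA, besides the core GGGTCA and its variant GGTTCA, taken in any combination with 1, 2 or 5 bases between. The 13 windows found covered 8 of the 9 members, Aldh1a3 having none in the table. The spacing of 5 was found in 32 of 32851 windows of all genes (0.097%), the spacing of 1 in 0.222% and of 2 in 0.268%. Among the members, 2 had a match, both with 5 bases between: Rarb, above background in every fraction, and Cyp26a1, above background in 2. The matches are in capitals below, on the strand of the gene, and end 37 and 16 bases before the start. Rarb lies at chr14:16575427-16575726 (minus strand) and Cyp26a1 at chr19:37697558-37697857 (plus strand, with the core read on the opposite strand).
Rarb: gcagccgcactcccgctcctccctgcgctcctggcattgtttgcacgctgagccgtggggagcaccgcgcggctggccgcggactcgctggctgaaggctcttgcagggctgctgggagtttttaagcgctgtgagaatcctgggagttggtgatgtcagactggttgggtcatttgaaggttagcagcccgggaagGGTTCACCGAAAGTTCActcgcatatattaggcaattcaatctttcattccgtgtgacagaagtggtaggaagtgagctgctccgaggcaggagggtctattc
Cyp26a1: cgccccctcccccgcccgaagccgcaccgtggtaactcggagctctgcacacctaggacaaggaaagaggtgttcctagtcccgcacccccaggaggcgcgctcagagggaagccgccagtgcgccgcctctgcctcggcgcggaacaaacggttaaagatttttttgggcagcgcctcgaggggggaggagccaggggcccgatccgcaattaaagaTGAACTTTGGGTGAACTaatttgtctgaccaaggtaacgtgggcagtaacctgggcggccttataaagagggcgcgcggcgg
These are matches of letters in a window and were not tested for binding; the other 6 members with windows had none of these repeats within them.

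Rarg was high at one coronal end and not at the other. Rarg, a receptor known from skin, cartilage and other tissues outside neurons, read 1.24, 1.59 and 1.64 in coronal 13, 14 and 15, while coronal 1 to 12 lay between 0.45 and 0.95. Unlike Aldh1a2, it was not clearly raised in coronal 1-3, at 0.95, 0.67 and 0.62 (block difference -0.21 ± 0.12, SE, limma adjusted p = 0.225). Coronal 1 lay just above the highest of coronal 4-12, which was 0.93 in coronal 6. The block 13-15 was 0.71 ± 0.12 (SE) above the others, or 1.64-fold (limma adjusted p = 0.000123). No removal of 1 fraction lost this call, and slide as a block did (0.65, adjusted p = 0.0613). In the horizontal series it was highest at the ends, 1.39 in horizontal 1 and 1.54 in horizontal 8, and lowest at 0.77 in horizontal 4.

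In the middle of the sagittal series Rarg made a valley. Sagittal 5, 6 and 7 read 0.57, 0.54 and 0.59, and the outer fractions 1, 2, 10 and 11 read 1.62, 1.29, 1.06 and 1.22. The middle was lower by -0.73 ± 0.15 (SE), or 1.66-fold (limma adjusted p = 0.00218), a call lost with slide as a block (-0.72, adjusted p = 0.147, again resting on sagittal 2 alone) and without the pooled fractions 1 and 11 (-0.61, adjusted p = 0.0606). Its r with Aldh1a2 was 0.57 over the coronal, 0.96 over the horizontal and 0.80 over the sagittal fractions. Its most similar genes were Cnn2 (r = 0.92), Slc22a6, one of the meningeal markers (r = 0.91), and Stab1, a scavenger receptor of macrophages and endothelium (r = 0.90). With the summed meningeal list its r was 0.68, 0.89 and 0.73 in the 3 series, and with endothelium and pericytes (6 of 6 genes detected) 0.91, 0.70 and 0.86. Other lists were as high in single series: olfactory bulb over the coronal (0.89), blood (0.91) and cerebral cortex (0.91) over the sagittal fractions. Over the horizontal fractions these 3 lists had r of 0.06, 0.18 and -0.30. Which of these tissues or cells, if any, carried the signal was not tested.

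Rara was close to uniform. The main probe read from 2.55 to 3.15 over the coronal, 2.68 to 3.19 over the horizontal and 2.80 to 3.22 over the sagittal fractions. None of the position comparisons passed the test for it (coronal F adjusted p = 0.171 and sagittal -0.27 ± 0.10, SE, adjusted p = 0.0853, limma). The second Rara probe disagreed on the calls. It ranged from -0.58 to 0.09 and was called along the coronal series (limma F adjusted p = 0.000195) and in sagittal middle against outer, at -0.35 ± 0.08 (SE, limma adjusted p = 0.00595). Its r with the first probe was 0.55 over 34 fractions. Both probes were lower in the middle, and the size of the difference was small in each. The genes most like the main probe were BC004004 (r = 0.85), Zer1 (r = 0.84) and Usp2, a deubiquitinase (r = 0.84).

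**Figure D3:**
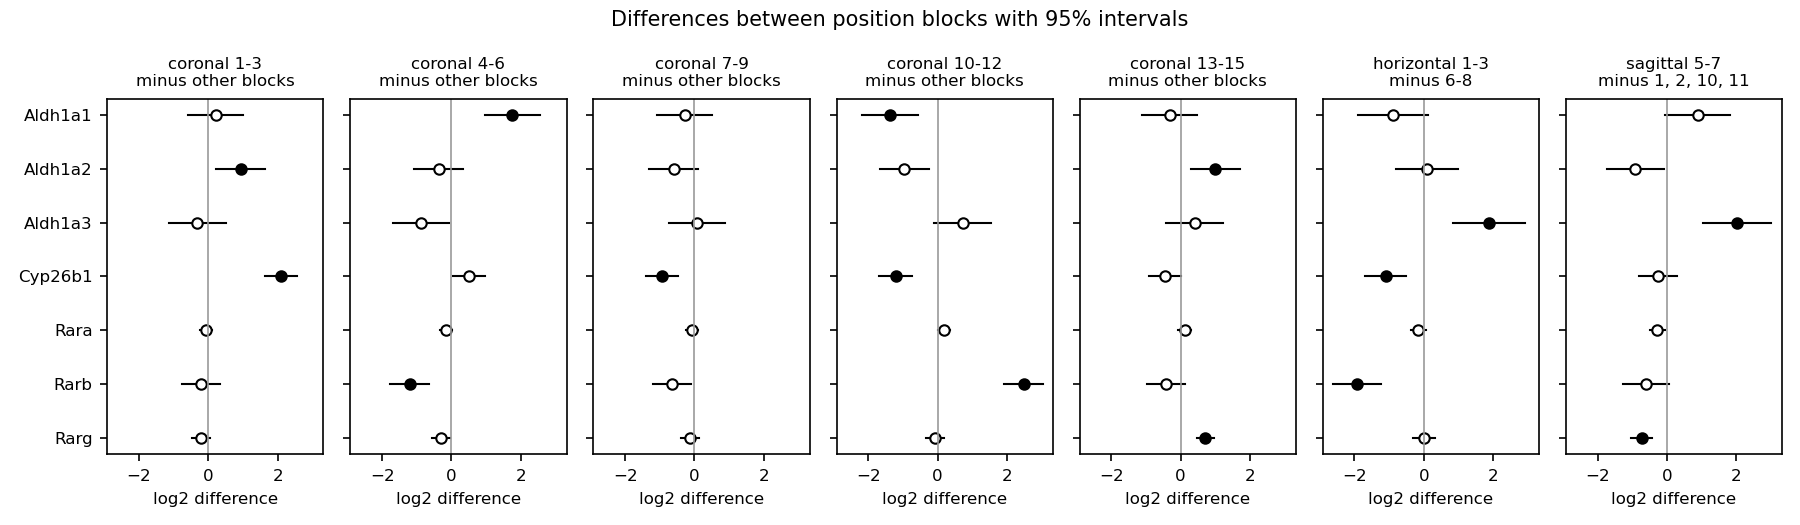
Log2 differences between position blocks for the 7 members above background in all fractions (1 probe per gene), with 95% intervals from the limma fit; filled points have an adjusted p under 0.05 over 38002 probes. Each coronal block is set against the mean of the other 4. Cyp26b1 is high in coronal 1-3, Aldh1a1 in 4-6, Rarb in 10-12, and Aldh1a2 in both 1-3 and 13-15.

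The coronal maximum lay in fraction 1 for Aldh1a2, 2 for Cyp26b1, 6 for Aldh1a1, 12 for Aldh1a3, Rarb and the main Rara probe, and 15 for Rarg. The signal-weighted centre of the coronal series, whose middle is 8, was 5.32 for Cyp26b1, 6.69 for Aldh1a1, 7.77 for Aldh1a2, 8.25 for Rara, 8.80 for Rarg, 9.28 for Aldh1a3 and 9.65 for Rarb. A centre near the middle does not mean a flat profile, as Aldh1a2 with its high ends shows. In the horizontal series, whose middle is 4.5, the centre was 3.10 for Aldh1a3 and 5.71 for Rarb, and the others lay between 4.51 and 5.04. No test was made on centres.

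Pairs of members varied together in some series and opposite in others. Aldh1a2 and Rarg were the pair with the highest r over 34 fractions (0.67) and were positively related in each series. Aldh1a3 and Cyp26b1 ran opposite in each: r was -0.48 over the coronal, -0.83 over the horizontal and -0.62 over the sagittal fractions. However, Aldh1a3 was not called along the coronal series, and Cyp26b1 was nearly level along the sagittal one. Other pairs kept the same sign as well, such as Rara and Rarb (0.50, 0.57 and 0.39 in the same order). Aldh1a3 and Rarb were opposite in the horizontal (-0.77) and sagittal (-0.81) series but not in the coronal one (0.62). Aldh1a1 and Rarb were opposite along the coronal series (-0.64) and ran together along the horizontal one (0.70). These r values describe 15, 8 and 11 neighbouring fractions of 1 animal each and carry no test.

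**Figure D4:**
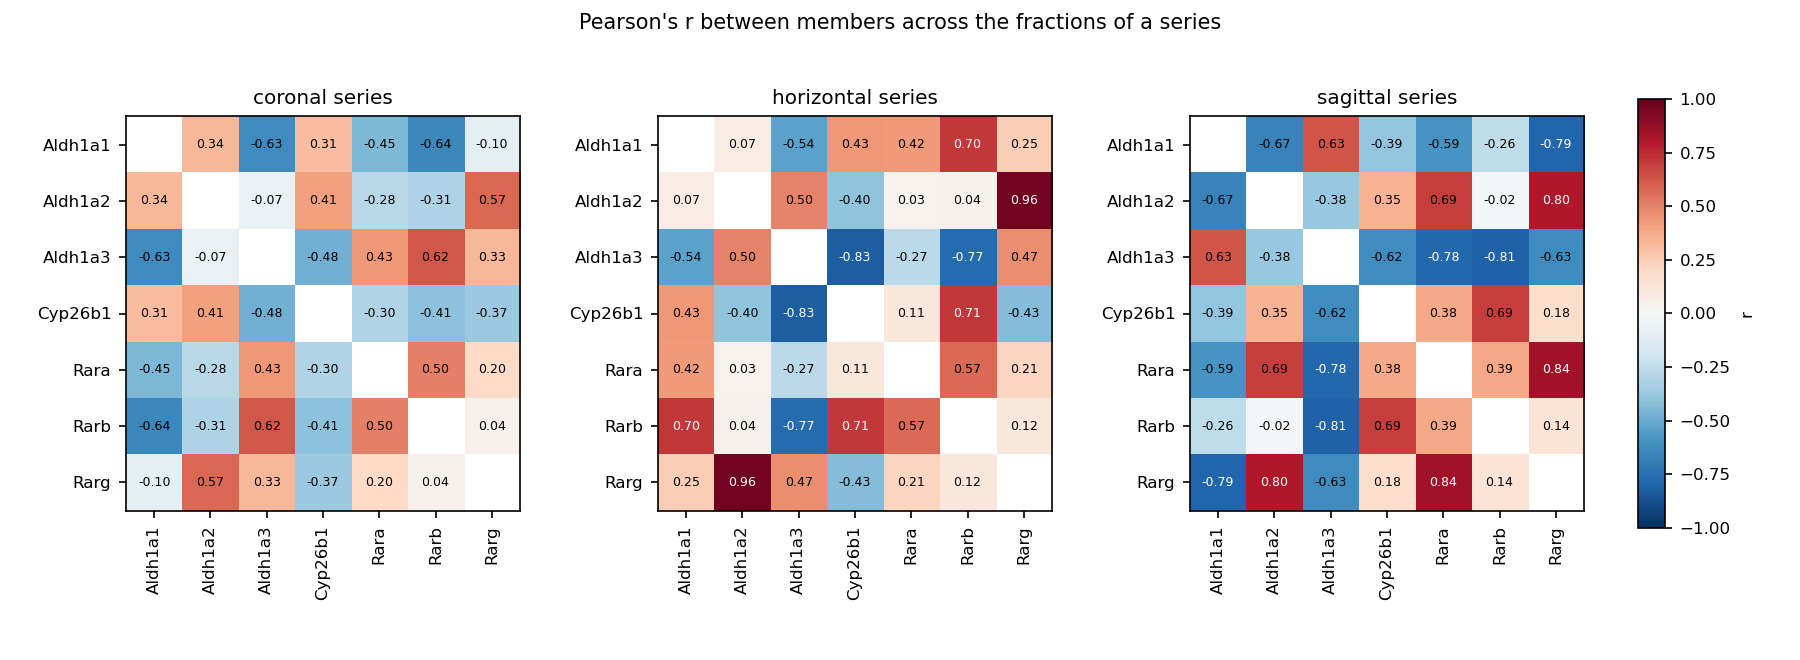
Pearson's r between the 7 members above background in all fractions, computed across the 15 coronal, 8 horizontal and 11 sagittal fractions separately; red is positive and blue negative. Aldh1a2 and Rarg are positive in all 3 panels, and Aldh1a3 and Cyp26b1 negative in all 3.

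The wider pathway was followed through a list of 34 genes of retinoid transport, storage, interconversion, binding, co-regulation and response, all with a probe and 30 of them tested. Along the coronal series 22 of 30 were called by the limma F test, against 48.5% of all probes tested, with the smallest adjusted p for Bco2, a carotene-cleaving enzyme (1.32e-06), Rdh5, a retinol dehydrogenase (3.36e-06), and the homeobox gene Meis1 (4.39e-06). In coronal 1-3, where Cyp26b1 was highest, 4 were higher and 4 lower, a share near that of all probes (24.8% called). Among them were Dhrs3, which turns retinaldehyde back to retinol (1.17 ± 0.15, SE), Rdh5 (1.88 ± 0.25) and Meis1 (2.30 ± 0.31), all higher. In coronal 10-12, where Rarb was highest, 6 were higher and 5 lower (17.2% of all probes called), led by Rxrg (2.66 ± 0.39, SE, adjusted p = 7.43e-05), the co-activator Ncoa1 (0.58 ± 0.12) and Rxrb (0.40 ± 0.09).

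The other blocks had 3 higher and 3 lower of the 30 pathway genes in 4-6 (19.4% of all probes called), 1 higher and 3 lower in 7-9 (8.68%) and 10 higher and 6 lower in 13-15 (31.3%). As in 1-3, the shares in 4-6 and 7-9 lay near those of all probes. In 4-6, Lrat, which stores retinol as esters, was called higher (limma adjusted p = 0.000473), but it was above background in no fraction of coronal 10-15, so no size is given. In 13-15, Bco2 was higher by 1.75 ± 0.20 (SE) and Zfp503 lower by -1.36 ± 0.23. Median differences of the list over these blocks lay between -0.16 and 0.07, against -0.08 to 0.08 for all probes tested.

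In horizontal 1-3 against 6-8 no pathway gene was higher and 5 of 30 were lower, against 5.28% of all probes called in either direction, led by Rxrg (-2.49 ± 0.49, SE, limma adjusted p = 0.0038), the retinoic acid binding protein Crabp1 (-2.55 ± 0.57, adjusted p = 0.0102) and Zfp503 (-1.13 ± 0.29, adjusted p = 0.023). Rxrg and Rarb had the same direction there. The median difference of the list was 0.02, against 0.07 for all probes tested. In the sagittal middle 3 were higher and 4 lower (9.62% of all probes called), led by Ncoa1 (-0.66 ± 0.14, SE, limma adjusted p = 0.00433). Lrat was also called higher in the middle, but it was not above background in any outer fraction, so no fold is given.

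The horizontal calls borrow the spread of all 3 mice. Fitted by itself, the horizontal series gave none of the 3 member calls (Rarb adjusted p = 0.0586, Aldh1a3 0.112, Cyp26b1 0.167, limma) and 12 of 38002 probes in all. The sagittal series fitted by itself kept Aldh1a3 (adjusted p = 0.018) and Rarg (adjusted p = 0.00876), and the coronal series fitted by itself called 5 of the 8 members by the F test. It lost 3 of the block calls, those of Aldh1a2 in 1-3 (adjusted p = 0.0709), Cyp26b1 in 7-9 (0.0952) and Aldh1a1 in 10-12 (0.077).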

How the data were processed

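RNA from brain fractions was hybridised to Agilent 1-colour mouse expression arrays. The deposited scanner files hold processed signal intensity per spot and background flags, made by the authors with Feature Extraction 10.10.1.1 (protocol GE1_1010_Sep10, mm9 grid). The authors' deposited log2 table holds 43199 probes, and 99.9% of its values matched log2 processed signal less 1 constant per array within 0.02, and it was used as an alternative. Replicate spots were averaged without those marked as outliers, and log2 values taken relative to each array's 75th percentile (8.07 to 9.18). Probes well above background on at least 2 arrays were tested (38002). limma 3.58.1 (R 4.3.3) fitted 1 model to 34 arrays with 11 position blocks, with Benjamini-Hochberg adjustment over all probes. The number of arrays limits the precision. The script was tested on simulated data.

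The probe standing for a gene was that above background in most fractions, then that with the highest median. Named were the 9 members, up to 3 pathway genes with the smallest adjusted p per comparison, the 3 named genes with the highest r per member, and markers. Members, blocks and lists were chosen with earlier results of these data known. Alternatives covered scaling, background correction, filters, variance model, slide, series fitted alone, trends, the gene's probes averaged, the deposited table, Spearman's rho and series means removed, and each fraction left out. Other marker lists had their highest coronal sum in fraction 3 (midbrain, choroid plexus, oligodendrocytes), fraction 6 (muscle), fraction 8 (thalamus, hypothalamus, pituitary), fraction 15 (microglia, blood). Some genes are not reported here and were taken out of the lists. Sequences came from RefSeq (GRCm38.p6). Python 3.11.15, pandas 2.3.3 and matplotlib 3.10.9 were used.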

Additional observations from a re-analysis of the deposited data

Results flagged for a closer look

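Of 44 groups of 4 to 8 values examined over the 11 probes, 2 held a value set apart from the rest by Dixon's criterion, which chance alone meets in about 1 of 20 groups. In the horizontal series of Cyp26b1, horizontal 2 (2.11) lay apart from the next lowest fraction (3.18), with a gap of 0.546 of the range. In the sagittal mirror pairs of Aldh1a2, fraction 10 minus fraction 2 was -0.35 while the other 4 pairs were between 0.11 and 0.26, with a gap of 0.754 of the range.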

How the results depend on the processing

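The 16 member differences that passed the test kept their direction in all 161 values under other settings (143 still called) and in all 211 with 1 fraction left out (182 still called). With slide as a block the members called fell from 5 to 3 along the coronal and from 2 to 1 along the sagittal series, and over all probes from 18427 to 7955 and from 3656 to 334. Fitted by itself, the horizontal series called 0 members by limma (3 had an unadjusted p under 0.05) and the sagittal series 4. A trend along the series called 1 horizontal and 4 sagittal members (416 against 2005 and 9195 against 3656 probes). Without the pooled sagittal fractions 1 member was called (735 probes). Scaling to the array median gave 1233 horizontal probes and no detection filter 1310. The median of all probes shifted by -0.16 in the sagittal comparison with the array median and -0.17 with normexp, against -0.05. With 1 fraction left out, member calls ranged from 5 to 6 for the coronal, from 1 to 3 for the horizontal and from 1 to 2 for the sagittal series, and probes called from 793 to 2947 and from 1532 to 4444. The cause of these changes was not tested, except that single-series and left-out fits hold fewer arrays. No paired analysis was possible because fraction numbers are positions along an axis of different mice and pair no samples. The r of each member with its most similar gene moved by less than 0.1 under Spearman's rho or with series means removed.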
